A study of Bos taurus with 15 samples.

Results

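The endometrium, the lining of the uterus, is built and kept ready for an embryo by a small group of transcription factors besides the HOX genes. The 10 described here are FOXA2, SOX17, GATA2, MSX1, MSX2, HAND2, FOXL2, FOXO1, EMX2 and SOX9, taken by name from the 32671 gene entries of the deposited table, where all 10 were found. The choice was made with earlier results of these data known. Endometrial biopsies came from 15 beef heifers (Bos taurus), 5 labelled High-fertile, 5 Sub-fertile and 5 Infertile, and the comparisons ask whether the uterine lining differs between these classes on day 14 of pregnancy. All heifers had their estrus synchronised with prostaglandin F, GnRH, a progesterone insert (CIDR), estradiol and progesterone, those that showed no estrus were given more GnRH and estradiol benzoate, and each received an in vivo-produced embryo on day 7. The biopsy was cut with forceps after a flush, from the horn on the side of the corpus luteum. How the classes were assigned, which heifers had the extra hormones, what the flush recovered, and the animals' ages and breeds were not stated in the labels.

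In the uterus these factors share work between epithelium and stroma. In mice, FOXA2 is needed for uterine glands to form, while GATA2 and SOX17 act with the progesterone receptor PGR in the epithelium, where Indian hedgehog (IHH) carries the progesterone signal to the stroma. HAND2 answers that signal in mouse stroma by restraining growth factors that would keep the epithelium dividing, and MSX1 and MSX2 are needed in mice for the uterus to accept an embryo. FOXO1 drives the change of human stromal cells into decidual cells, EMX2 is needed for the reproductive tract to form, FOXL2 is best known from granulosa cells of the ovary, and SOX9 from cartilage, the testis and gland epithelium.

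Each library came from 1 heifer and held 38017136 to 62858724 counts. Levels are given as CPM, the count divided by the scaled size of its library and given on a common scale, and a fold change as its log2 with a standard error. Of the entries, 19962 were tested, all 10 factors among them, and an adjusted p is the edgeR quasi-likelihood p corrected over those genes. The libraries were also grouped into 3 sets by their counts of pseudogene and ribosomal RNA entries, without use of the class. The number of sets was given to the grouping as 3 and was not tested. The largest, of 8, took in 4 High-fertile heifers (replicates 2 to 5), 2 Sub-fertile (3 and 4) and 2 Infertile (1 and 4). The next, of 5, took in 3 Sub-fertile (1, 2 and 5) and 2 Infertile (3 and 5). The last paired High-fertile replicate 1 with Infertile replicate 2, in which pseudogene entries alone made up 1.09% and 1.21% of counts, against 2.39% to 3.27% elsewhere. No label names these sets, and the set of 5 holds no High-fertile library, so that set and class overlap in part. Markers of epithelium and of stromal fibroblasts, 10 of each, were all detected, as endometrium should show, while 5 trophoblast genes summed to 3.30 to 24.4 CPM, highest in Infertile replicate 1, with CSH2 and TKDP1 at 0 in every library. Smooth muscle markers ranged widely, from 594 to 23200 summed CPM.

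Per length of transcript the 10 factors covered a wide span. FPKM, which divides fragments by gene length and library size, allows this comparison between genes. MSX1 led with a median of 127 FPKM over the 15 libraries, followed by SOX17 at 77.0, GATA2 at 53.5 and EMX2 at 44.5. HAND2 at 27.7, FOXO1 at 19.7 and FOXA2 at 16.3 came next, and FOXL2 at 2.92, MSX2 at 1.4 and SOX9 at 0.23 were lowest. The range of each factor over the libraries overlapped that of its neighbour in the order. Within single libraries the order was firmer for some pairs: MSX1 was above SOX17, SOX17 above GATA2, EMX2 above HAND2, FOXA2 above FOXL2 and MSX2 above SOX9 in 15 of 15. GATA2 exceeded EMX2 in 9 of 15, HAND2 exceeded FOXO1 in 12 of 15, FOXO1 exceeded FOXA2 in 12 of 15 and FOXL2 exceeded MSX2 in 13 of 15.

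**Figure D1:**
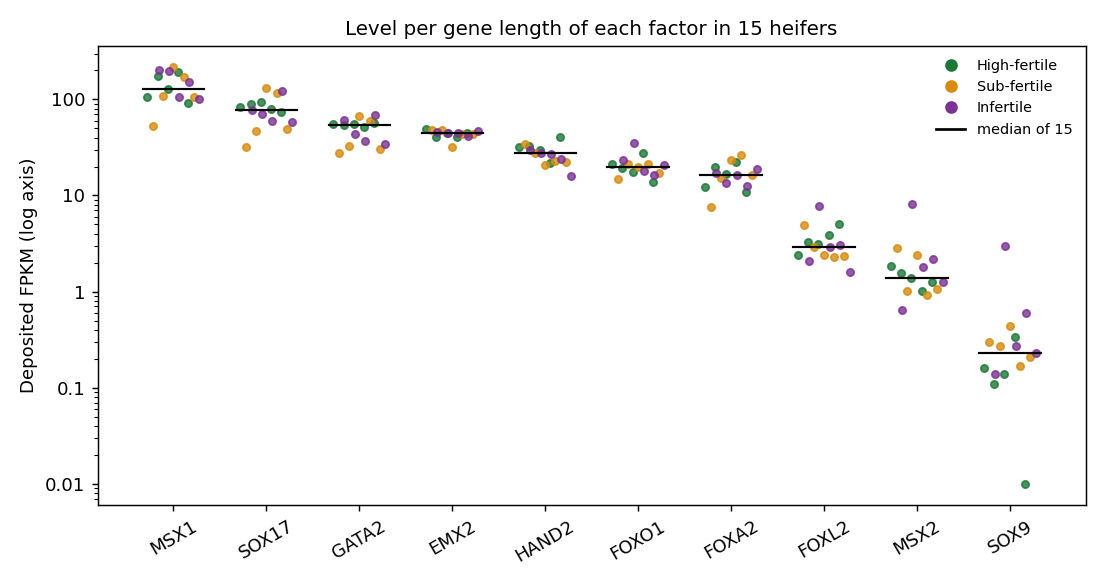
Deposited FPKM (log axis) of the 10 transcription factors, 1 point per library over 15 heifers, ordered by median. MSX1 has the highest median, 127 FPKM, and SOX9 the lowest, 0.23 FPKM.

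FOXA2, HAND2, SOX17, EMX2, GATA2 and MSX1 were each above the relatives set beside them in 15 of 15 libraries. FOXA1 had a median of 0 FPKM and at most 65 counts, against 16.3 FPKM for FOXA2. HAND1 and EMX1 had at most 4 and 9 counts in any library, and GATA4 at most 4. GATA3 and GATA6 had medians of 0.42 and 1.24 FPKM, below GATA2 in 15 of 15 libraries. SOX7 and SOX18, which share with SOX17 a known role in blood vessels, had medians of 5.13 and 8.66 FPKM. MSX2 was below MSX1 in all 15, and SOX9 was below SOX4, another SOX factor with a median of 26.7 FPKM, in all 15. FOXO1 exceeded FOXO3, with a median of 26.8 FPKM, in 1 library and FOXO4, with a median of 23.2 FPKM, in 6 of 15.

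No factor differed between the classes past the adjusted threshold of 0.05. In the Sub-fertile against High-fertile comparison 0 of 10 passed, as did 0% of all genes, and at an unadjusted p under 0.05 it was 0 of 10 against 13.7% of all genes. In the Infertile against High-fertile comparison 0 of 10 passed, as did 0% of all genes, and at an unadjusted p under 0.05 only SOX9 did, 1 of 10 against 11% of all genes. In the Infertile against Sub-fertile comparison 0 of 10 passed, as did 0% of all genes, and unadjusted it was 0 of 10 against 2.63% of all genes. For the test of any difference among the classes the adjusted count was 0 of 10 with 0% of all genes, and SOX9 was the 1 of 10 at an unadjusted p under 0.05, against 8.42% of all genes. The ranges of the classes overlapped for every factor in every pair, where 5.07%, 2.22% and 0.205% of all genes had ranges that did not overlap in the 3 comparisons in the same order. The median log2 fold change over the 10 was -0.09, -0.01 and 0.20, beside 0.01, 0.04 and 0.03 over all genes tested. In the Sub-fertile class 3 were higher and 7 lower than in the High-fertile, in the Infertile 5 were higher and 5 lower, and against the Sub-fertile 8 were higher and 2 lower in the Infertile. These 3 comparisons share libraries and are not independent of each other.

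**Figure D2:**
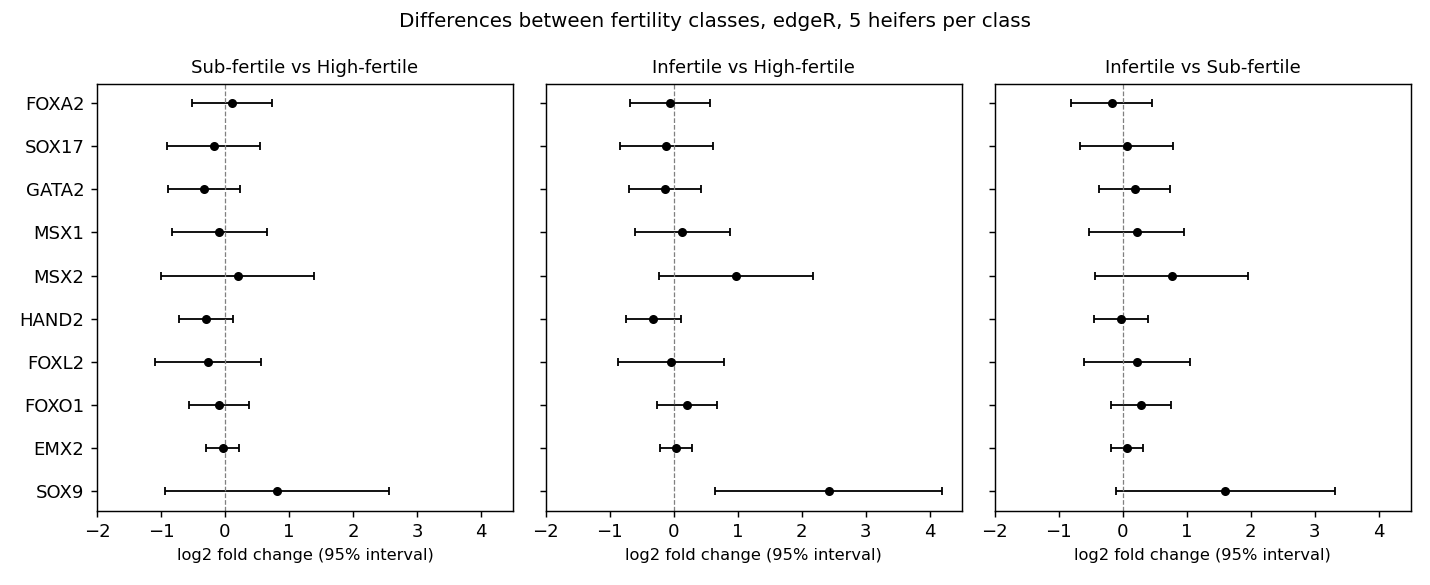
Log2 fold change of each factor in the 3 class comparisons, with 95% intervals from the edgeR fit (12 residual degrees of freedom). The widest departures from 0 are those of SOX9, 2.42 in Infertile against High-fertile, and no factor passes the adjusted threshold.

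GATA2, a zinc finger factor upstream of PGR in mouse uterine epithelium, measured 167, 162.5, 168.5, 159.5 and 170.2 CPM in High-fertile replicates 1 to 5. It measured 84.0, 98.5, 199, 185 and 92.8 CPM in the Sub-fertile and 198, 130.2, 108, 206 and 108 CPM in the Infertile replicates. The High-fertile heifers lay close together, with a coefficient of variation of 2.66%, while each of the other classes held libraries both above and below all of them. The class means were 165 ± 4.41, 132 ± 55.2 and 150.0 ± 48.3 CPM (SD, n = 5 each). The log2 fold change was -0.33 ± 0.26 (SE; edgeR adjusted p = 0.502) in the Sub-fertile and -0.14 ± 0.26 in the Infertile class.

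SOX17, an HMG-box factor of endometrial epithelium and of blood vessels, had the same division of libraries. Its levels were 102, 111.5, 117, 98.9 and 91.7 CPM in the High-fertile replicates. They were 39.4, 56.8, 156, 147 and 61.1 CPM in the Sub-fertile and 102, 85.8, 70.7, 149.9 and 73.2 CPM in the Infertile replicates. High-fertile heifers again formed a narrow group, with Sub-fertile replicates 3 and 4 and Infertile replicate 4 above it. The log2 fold change was -0.18 ± 0.34 (SE; edgeR adjusted p = 0.796) in the Sub-fertile and -0.11 ± 0.34 in the Infertile class.

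The libraries low in both genes were the 5 of the 5-library set. In them GATA2 lay between 84.0 and 108 CPM, against 130.2 to 205.8 CPM in the other 10, and SOX17 between 39.4 and 73.2 CPM, against 85.8 to 156 CPM. This separation held for 2 of the 10 factors, while 11.5% of all genes were lower in the 5 than in every other library. With class in the model, the difference between the 5-library and the 8-library set was -0.93 ± 0.10 for GATA2 (SE; edgeR adjusted p = 3.33e-05) and -1.14 ± 0.19 for SOX17 (adjusted p = 0.000596). MSX1 also passed, at -1.03 ± 0.25 (adjusted p = 0.00755), with 99.1 to 203 CPM against 171 to 407 CPM. Of the 10 factors 3 were lower and 0 higher, beside 17.6% of all genes lower and 13.1% higher (30.7% in all). None passed between the 2-library and the 8-library set, where 4.56% of all genes did. The sets were formed from counts of these same libraries. The p values between sets, here and below, therefore describe the division and are no independent test of it.

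The steroid receptors showed the division too. PGR, the receptor through which progesterone acts, was at 9.05, 9.285, 10.1, 15.1 and 6.92 CPM in the High-fertile replicates. It was at 3.19, 3.335, 14.0, 6.72 and 2.48 CPM in the Sub-fertile and 12.8, 51.5, 2.47, 10.1 and 1.89 CPM in the Infertile replicates. The 5-library set held the 5 lowest values, 1.89 to 3.34 CPM against 6.72 to 51.5 CPM, and Infertile replicate 2 stood far above all others. For ESR1, the estrogen receptor, the 5 libraries lay between 4.90 and 8.01 CPM and the other 10 between 13.1 and 25.8 CPM. Against the 8-library set the log2 differences were -2.26 ± 0.41 for PGR (SE; edgeR adjusted p = 0.0013) and -1.70 ± 0.21 for ESR1 (adjusted p = 7.36e-05). Between the classes neither receptor passed, with log2 fold changes of -0.76 for PGR and -0.41 for ESR1 in Sub-fertile against High-fertile, and 0.64 and -0.24 in Infertile against High-fertile. Without Infertile replicate 2 the last pair was -0.57 and -0.51. Without Sub-fertile replicate 3 the Sub-fertile values were -1.36 for PGR and -0.71 for ESR1. With the library sets in the model they were 0.50 and 0.39, the opposite sign, whereas limma-voom with sample quality weights called both lower in the Sub-fertile class (limma adjusted p = 0.0172 and 0.0139).

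**Figure D3:**
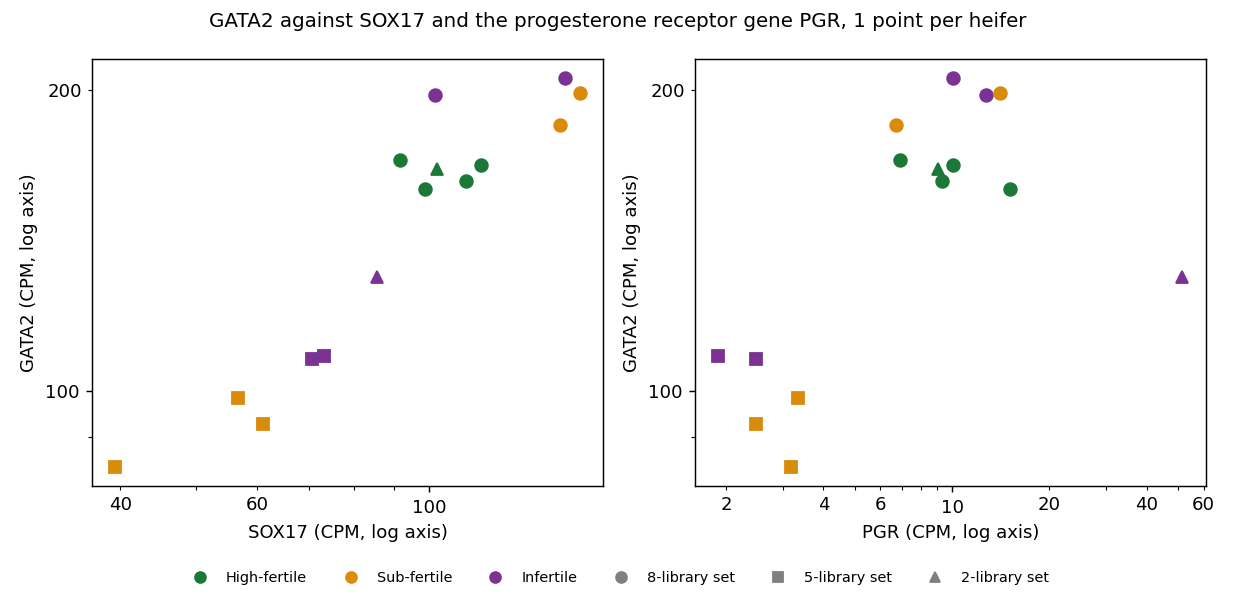
GATA2 in CPM against SOX17 and PGR in CPM on log axes, 1 point per heifer, coloured by class and shaped by library set. The 5-library set, with GATA2 at 84.0 to 108 CPM, lies apart at the lower left in each panel.

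What drew the 5 libraries apart was not tested, and whether animals or libraries differ cannot be told apart here. The signs of GATA2 and SOX17 between the classes depended on the sets. With the sets in the model the Sub-fertile against High-fertile log2 fold change was 0.07 for GATA2 and 0.24 for SOX17, in place of -0.33 and -0.18. Within the 8-library set GATA2 was 159.5 to 170.2 CPM in 4 High-fertile heifers, 185 and 199 CPM in 2 Sub-fertile and 198 and 206 CPM in 2 Infertile heifers. There both other groups lay above all 4 High-fertile heifers, as 10.1% of all genes did in the Sub-fertile and 6.49% in the Infertile heifers of this set, while those 2 groups overlapped each other. The Sub-fertile and Infertile heifers were higher by 0.20 ± 0.08 (SE; edgeR unadjusted p = 0.0448, adjusted p = 0.668) and 0.28 ± 0.08 (unadjusted p = 0.0117, adjusted p = 0.903). SOX17 was higher by 0.52 ± 0.17 in those Sub-fertile heifers (unadjusted p = 0.0145, adjusted p = 0.649). With limma-voom and sample quality weights, both genes instead passed as lower in Sub-fertile than in High-fertile heifers, GATA2 at -0.69 (limma adjusted p = 0.00704) and SOX17 at -0.79 (adjusted p = 0.0139), a fit that called 7162 genes in all.

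MSX1, a homeobox factor needed for receptivity in mice, varied 4.11-fold between the lowest and the highest heifer. It measured 198, 330, 241, 368 and 171 CPM in the High-fertile, 99.1, 201, 397, 331 and 203 CPM in the Sub-fertile and 407, 363, 191, 278 and 197.5 CPM in the Infertile replicates. Sub-fertile replicate 1 was far below the rest, and the highest heifers of the 3 classes were close to each other, at 368, 397 and 407 CPM. The log2 fold changes were -0.09 ± 0.34 (SE; edgeR adjusted p = 0.904) in the Sub-fertile and 0.14 ± 0.34 in the Infertile class. With the library sets in the model the Sub-fertile value was 0.38 ± 0.28, the opposite sign (edgeR unadjusted p = 0.19). The Infertile value was then 0.50 ± 0.26 (unadjusted p = 0.0767, adjusted p = 0.671). Within the largest library set the values were 0.38 ± 0.31 in the Sub-fertile and 0.29 ± 0.31 in the Infertile class.

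FOXA2, the forkhead factor of uterine glands, ranged from 15.3 to 54.8 CPM. The class means were 33.2 ± 9.94 CPM in High-fertile, 35.8 ± 15.2 CPM in Sub-fertile and 31.8 ± 5.996 CPM in Infertile heifers (SD, n = 5 each). Both ends of the range were Sub-fertile, replicate 1 and replicate 4. The log2 fold changes were 0.11 ± 0.29 (SE; edgeR 95% interval -0.52 to 0.74) in the Sub-fertile and -0.06 ± 0.29 in the Infertile class. FOXA2 and MSX1 tended to be high in the same heifers, with Pearson's r = 0.745 over 15 libraries (permutation p = 0.00171, adjusted over 45 pairs 0.0256). Spearman's rho was 0.661 (permutation p = 0.00955, adjusted 0.201), and r was 0.559 without Sub-fertile replicates 1 and 4. Within the 8-library set r was 0.774 (exact permutation p = 0.0231, adjusted 0.26), and 0.395 without High-fertile replicate 5 and Infertile replicate 4.

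**Figure D4:**
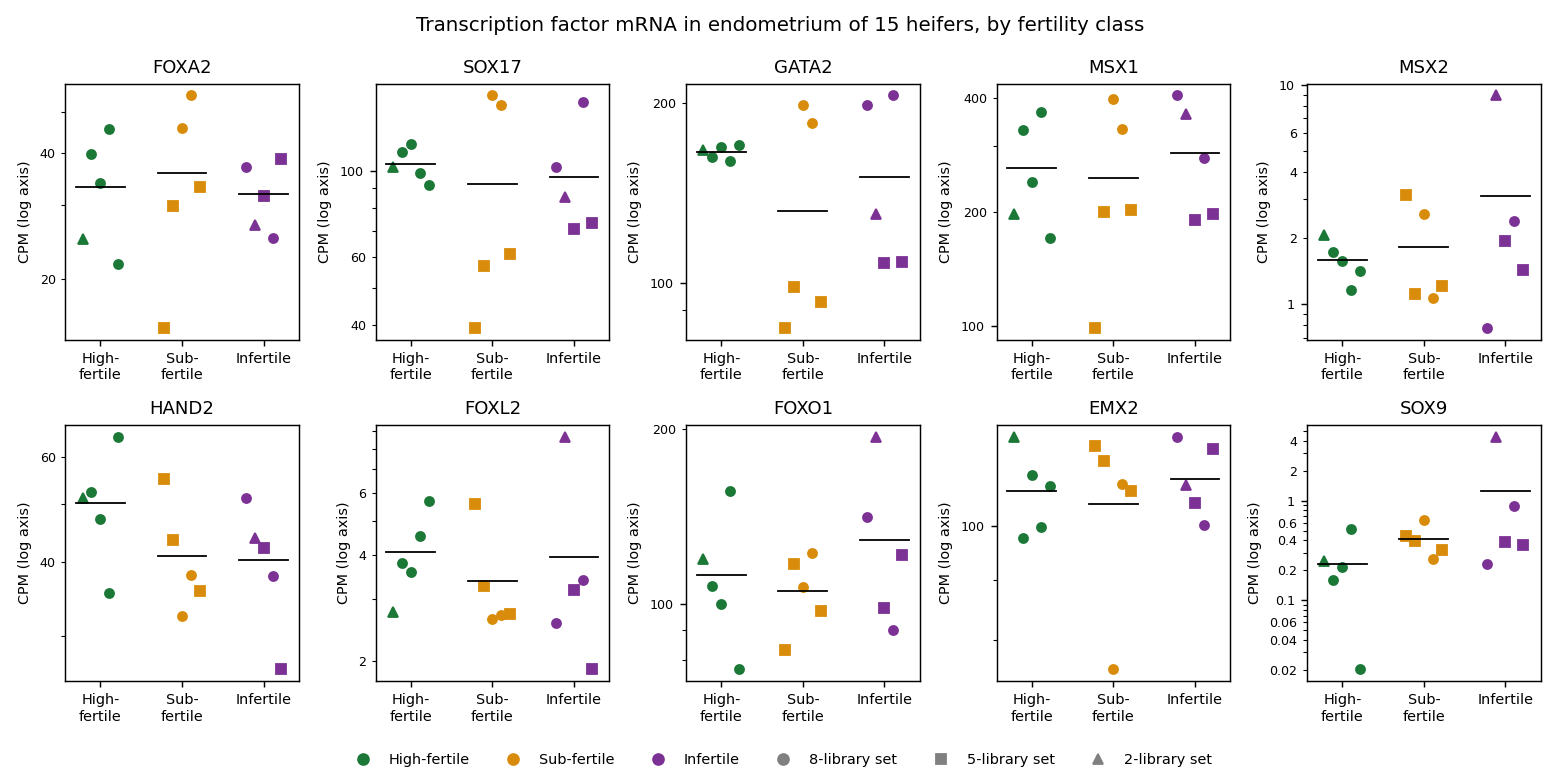
CPM of each factor on a log axis in 15 heifers, by class, with a line at the class mean and a symbol for the library set. The classes overlap for all 10 factors, and Infertile replicate 2 is the highest library for FOXL2, FOXO1, SOX9 and MSX2.

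MSX2, the lowly expressed partner of MSX1, was at or below 3.13 CPM in all but 1 library. It measured 2.05, 1.73, 1.57, 1.15 and 1.40 CPM in the High-fertile, 3.13, 1.11, 2.57, 1.065 and 1.21 CPM in the Sub-fertile and 0.775, 8.935, 1.93, 2.395 and 1.43 CPM in the Infertile replicates. Infertile replicate 2 was 2.85 times the next highest library. The log2 fold change in Infertile against High-fertile was 0.97 ± 0.55 (SE; edgeR unadjusted p = 0.1, adjusted p = 0.5), and 0.05 without that library.

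SOX9 was close to the limit of detection, with 1 to 207 counts per library. It measured 0.247, 0.159, 0.214, 0.517 and 0.0203 CPM in the High-fertile replicates. It measured 0.444, 0.394, 0.637, 0.262 and 0.319 CPM in the Sub-fertile and 0.230, 4.40, 0.385, 0.876 and 0.358 CPM in the Infertile replicates. Infertile replicate 2 stood 5.03 times above the next library, and the count in High-fertile replicate 5 was 1, under the floor of 3 counts (0.0492 to 0.0783 CPM by library). The log2 fold change was 2.42 ± 0.81 (SE; edgeR unadjusted p = 0.00952, adjusted p = 0.435) in Infertile against High-fertile and 1.61 ± 0.78 (unadjusted p = 0.059) against Sub-fertile. Without Infertile replicate 2 these were 0.99 and 0.18. Ciliated cell markers were also higher in Infertile than in High-fertile heifers, at 180 to 510 against 147 to 244 summed CPM. Of the tested genes 7 of 7 were higher and 0 passed adjustment, while 46.5% of all genes were lower. Against the mean log2 level of these markers, Pearson's r for SOX9 was 0.447 (permutation p = 0.0906, adjusted 0.381), and 0.207 with class means removed. For MSX2 r was 0.597 (permutation p = 0.0126, adjusted 0.101). The part of the ciliated cells in the SOX9 difference was not tested. Infertile replicate 2 was also the highest library for FOXL2 and FOXO1, 4 of the 10 factors, where 15.5% of all genes had their highest value there.

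FOXL2 measured 2.745, 3.79, 3.57, 4.52 and 5.695 CPM in the High-fertile replicates. It measured 5.59, 3.265, 2.62, 2.69 and 2.71 CPM in the Sub-fertile and 2.555, 8.68, 3.17, 3.39 and 1.89 CPM in the Infertile replicates. Infertile replicate 2, High-fertile replicate 5 and Sub-fertile replicate 1 were the highest 3, 1 from each class. The log2 fold change was -0.27 ± 0.38 (SE; edgeR adjusted p = 0.719) in the Sub-fertile and -0.05 ± 0.38 in the Infertile class, and -0.56 in the latter without Infertile replicate 2 (adjusted p = 0.344). The Sub-fertile value was -0.53 without Sub-fertile replicate 1, -0.12 without High-fertile replicate 5 and -0.74 within the 8-library set (edgeR unadjusted p = 0.0306, adjusted p = 0.653). A list of ovarian and other outside genes (AMH, INHA, CYP17A1 and ALB) summed to 1.59 to 4.66 CPM over all libraries.

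FOXL2 followed the markers of the stroma. The 10 stromal fibroblast markers, collagens and surface proteins of connective tissue, summed to 9963 to 39110 CPM, and the highest 3 libraries for FOXL2 were also the highest 3 for these markers. Against the mean log2 level of the list, Pearson's r was 0.872 over 15 libraries (permutation p = 3e-05, adjusted over 80 relations of factors with marker lists 0.0012) and Spearman's rho 0.829 (permutation p = 0.00032, adjusted 0.0256). Without Infertile replicates 2 and 5 r was 0.772, and within the 8-library set 0.83 (exact permutation p = 0.0103, adjusted 0.166). In a bulk biopsy, fewer cells of a type and less RNA per cell cannot be told apart, and CPM of one cell type falls when another takes more of the library.

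**Figure D5:**
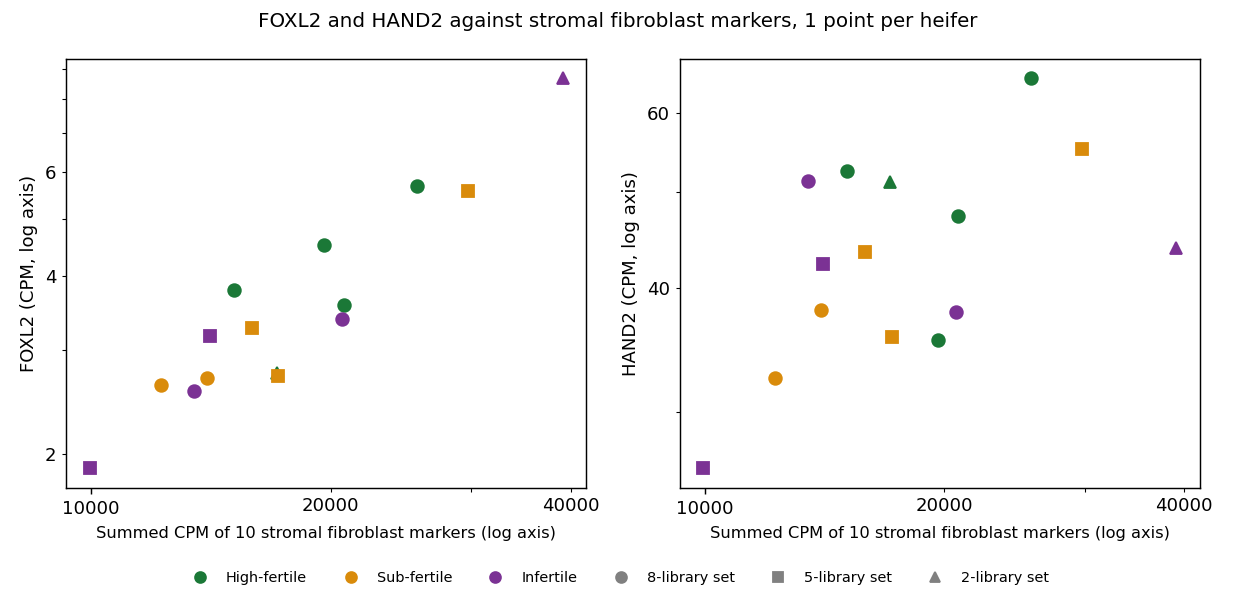
FOXL2 and HAND2 in CPM against the summed CPM of 10 stromal fibroblast markers, log axes, 1 point per heifer. The highest 3 heifers for the markers are also the highest 3 for FOXL2, and r is 0.872 for FOXL2 and 0.702 for HAND2.

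HAND2, the stromal basic helix-loop-helix factor, measured 51.2, 52.5, 47.3, 35.4 and 65.1 CPM in the High-fertile replicates. It measured 55.2, 43.5, 32.4, 37.97 and 35.7 CPM in the Sub-fertile and 51.2, 43.9, 42.3, 37.8 and 26.3 CPM in the Infertile replicates. The class means were 50.3 ± 10.7, 40.95 ± 8.91 and 40.3 ± 9.18 CPM (SD, n = 5 each), with the highest value in High-fertile replicate 5 and the lowest in Infertile replicate 5. The log2 fold changes were -0.30 ± 0.20 (SE; edgeR adjusted p = 0.437) and -0.32 ± 0.20 (adjusted p = 0.519), with 95% intervals of -0.73 to 0.13 and -0.75 to 0.11. HAND2 also followed the stromal markers, with r = 0.702 (permutation p = 0.00358, adjusted 0.0477), rho = 0.564 (adjusted 0.276) and r = 0.685 without Infertile replicates 2 and 5. Within the 8-library set r was 0.676 (exact permutation p = 0.0612, adjusted 0.31), and -0.12 without High-fertile replicate 5 and Sub-fertile replicate 3, so that there it rests on those libraries. Whether the stroma has a part in the class differences of HAND2 was not tested.

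Among the epithelial relations, FOXA2 followed the 10 epithelial markers with r = 0.75 (permutation p = 0.00174, adjusted 0.0358), rho = 0.675 (adjusted 0.112), and r = 0.469 without Sub-fertile replicates 1 and 3, so that it rests in part on those libraries. The same holds for MSX1, where r was 0.716 (adjusted 0.0477) and 0.351 without the same libraries, and rho was 0.425 (adjusted 0.423). Within the 8-library set r with these markers was 0.594 for FOXA2 (exact permutation p = 0.127) and 0.536 for MSX1 (exact permutation p = 0.172). Because SOX17, GATA2, PGR and ESR1 split the libraries into separate clusters, their relations are given as values of r only within the 8-library set. There SOX17 followed the epithelial markers with r = 0.862 (exact permutation p = 0.0104, adjusted 0.166), and the relation of SOX17 with GATA2 was r = 0.64 (exact permutation p = 0.0962). In that set ESR1 followed MSX1 at r = 0.888 (exact permutation p = 0.0095, adjusted over 20 relations 0.095) and FOXA2 at r = 0.881 (p = 0.00427, adjusted 0.0854), the latter falling to 0.368 without High-fertile replicate 5 and Infertile replicate 4. Of the 45 pairs, 80 relations with markers and 20 with receptors, 0 passed after adjustment within the 8 libraries.

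FOXO1, a forkhead factor held in check by insulin signalling, ranged from 77.2 to 194 CPM. The class means were 112 ± 29.1 CPM in High-fertile, 105 ± 15.6 CPM in Sub-fertile and 129 ± 41.5 CPM in Infertile heifers (SD, n = 5 each). The lowest library was High-fertile replicate 5 and the highest Infertile replicate 2. The log2 fold changes were -0.09 ± 0.21 in the Sub-fertile and 0.20 ± 0.21 in the Infertile class (SE; edgeR adjusted p = 0.843 and 0.693), and the latter was 0.01 without Infertile replicate 2.

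EMX2, a homeobox factor of the reproductive tract, was the steadiest of the 10. It measured 119, 97.6, 110.5, 99.8 and 108 CPM in the High-fertile replicates. It measured 117, 113.5, 75.6, 108 and 107 CPM in the Sub-fertile and 119, 108, 105, 100.2 and 116 CPM in the Infertile replicates. Sub-fertile replicate 3 was the one low library, and the rest lay between 97.6 and 119 CPM. The log2 fold change in Sub-fertile against High-fertile was -0.04 ± 0.12 (SE; edgeR 95% interval -0.29 to 0.22) and in Infertile against High-fertile 0.04 ± 0.12. The SD of log2 CPM within classes was 0.17 for EMX2, at percentile 8.7 of all genes tested, followed by HAND2 at 0.33, FOXO1 at 0.36, GATA2 at 0.43 and FOXA2 at 0.51. It was 0.58 for SOX17 and FOXL2, 0.60 for MSX1, 0.87 for MSX2 and 1.17 for SOX9, the last at percentile 93.

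A list of 81 partners, targets and relatives of these factors was also followed, of which 79 were in the table and 70 were tested. In edgeR none passed the adjusted threshold in any of the 3 comparisons. With limma-voom and sample quality weights, 7162 of all 19962 genes passed in Sub-fertile against High-fertile. Of those named here KLF9, PTCH1, MUC1, AREG, PGR and ESR1 were among them, at limma adjusted p from 0.00416 for KLF9 to 0.0189 for PTCH1. In edgeR PTCH1 was higher and the others were lower in the Sub-fertile class. Of the 70, at an unadjusted edgeR p under 0.05, 1 was higher and 2 were lower in Sub-fertile against High-fertile, where 6.58% and 7.14% of all genes were. In Infertile against High-fertile 1 was higher and 3 were lower, beside 7.14% and 3.89% of all genes, and in Infertile against Sub-fertile 6 were higher and 1 was lower, beside 1.91% and 0.721%. The median log2 fold change of the list was -0.17, -0.08 and 0.04 in the same order.

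KLF9, a zinc finger factor that works with PGR in the uterus, had the smallest p of the list against the High-fertile class in both comparisons. It measured 43.7, 35.9, 45.4, 26.9 and 33.8 CPM in the High-fertile replicates. It measured 26.6, 20.7, 25.6, 25.2 and 23.1 CPM in the Sub-fertile and 31.0, 24.0, 19.4, 28.5 and 14.0 CPM in the Infertile replicates. The Sub-fertile values were all below the High-fertile ones, as for 2.81% of all genes, and the Infertile values overlapped them. The log2 fold changes were -0.62 ± 0.20 (SE; edgeR unadjusted p = 0.00766, adjusted p = 0.36) and -0.67 ± 0.20 (unadjusted p = 0.0046, adjusted p = 0.435). With the library sets in the model the values were -0.34 (edgeR unadjusted p = 0.13) in the Sub-fertile and -0.53 (unadjusted p = 0.013, adjusted p = 0.604) in the Infertile class. Within the 8-library set they were -0.49 (unadjusted p = 0.0367, adjusted p = 0.653) in the Sub-fertile and -0.26 (unadjusted p = 0.209) in the Infertile class.

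Also in Sub-fertile against High-fertile, PTCH1, the hedgehog receptor that is itself a hedgehog target, was at a log2 fold change of 0.39 ± 0.14 (SE; edgeR unadjusted p = 0.0155, adjusted p = 0.36). MUC1, a mucin of the epithelial surface, was at -0.71 ± 0.27 (unadjusted p = 0.0198, adjusted p = 0.36). Within the 8-library set PTCH1 was at 0.16 ± 0.20 (unadjusted p = 0.439) and MUC1 at -0.67 ± 0.27 (unadjusted p = 0.0393, adjusted p = 0.653). IHH, the ligand, was at -0.40 ± 0.57 (unadjusted p = 0.495), and NR2F2, its stromal effector, at 0.03 ± 0.23. In Infertile against High-fertile, WNT4, a signal of decidualising stroma, was at -1.43 ± 0.57 (unadjusted p = 0.0238, adjusted p = 0.439), and -0.90 without High-fertile replicate 5. SPP1, osteopontin, an adhesive secretion of uterine glands, was at 2.15 ± 0.98 (unadjusted p = 0.0439, adjusted p = 0.45), and 1.17 without Infertile replicate 2. With the library sets in the model this SPP1 value was 1.16 ± 1.27, and within the 8-library set -0.79 ± 1.05, the opposite sign. In Infertile against Sub-fertile, SPP1 was at 2.79 ± 1.00 (unadjusted p = 0.0142, adjusted p = 0.998). It was 1.80 without Infertile replicate 2, and -0.22 ± 1.18 within the 8-library set. AREG, an epidermal growth factor family ligand, was at 0.89 ± 0.35 (unadjusted p = 0.021), and 0.23 ± 0.54 within the 8-library set (unadjusted p = 0.679). The smallest edgeR adjusted p of any gene in this comparison was 0.998. LIFR, the receptor for leukaemia inhibitory factor, was at -0.54 ± 0.22 (unadjusted p = 0.0276). LIFR also differed between the sets, with 426 to 660 CPM in the 5-library set and 212 to 485.5 CPM in the other 10. Against the 8-library set the difference was 0.64 ± 0.15 (edgeR adjusted p = 0.00618). With the sets in the model the class value of LIFR was -0.43, and within the 8-library set -0.62.

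The genes whose pattern over the 15 libraries was most like each factor, by Pearson's r of log2 CPM, were as follows, given without a test. For GATA2 they were RNF185, TPRN and C14H8orf82, and for SOX17 they were TMEM79, CISH and ADCK2. These 2 factors divide the libraries by set, and 478 genes for GATA2 and 169 for SOX17 had r over 0.9, against 28 or fewer for each of the other 8. Within the 8-library set r was 0.839, 0.759 and 0.787 for the GATA2 genes and 0.952, 0.945 and 0.92 for the SOX17 genes, in the order named. Over all 15 libraries MSX1 was most like LLGL2 at 0.954, ATP2A3 at 0.948 and KREMEN1 at 0.923, and FOXA2 most like PCBD1 at 0.905, TMPRSS2 at 0.894 and HOXB2 at 0.877. FOXL2 was closest to COL5A2 and FBLN7, both at 0.952, and CACNA1G at 0.948, and HAND2 to SORCS2 at 0.922, THSD7A at 0.917 and TSHZ3 at 0.903. For FOXO1 they were SNTB1 at 0.944, SEC61B at 0.94 and TMEM98 at 0.911, and for EMX2 ACER3 at 0.871, RPL14 at 0.864 and RPL38 at 0.859. For the scarce factors, SOX9 was closest to MC4R at 0.875, CD5L at 0.867 and RSPH9 at 0.839, and MSX2 to CHST4 at 0.905, GPR133 at 0.897 and TMOD4 at 0.887. Library depth, composition and the library sets are shared by all of these values.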

How the data were processed

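Polyadenylated RNA from 15 endometrial biopsies, purified on RNeasy columns, was sequenced from stranded TruSeq libraries, per the labels' protocols. Per the submitters' processing notes, FastQC, Subread, featureCounts and edgeR were used, with genome build UMD3.1, and tool versions and the strand setting were not stated. The table deposited by the authors holds whole read counts per gene and FPKM values for each heifer. The deposited FPKM served to compare levels between genes, the deposited counts for everything else. Their ratio to the counts was constant within 0.785% over 2825 genes. No genome of that build was used, so no coordinates or sequences are printed.

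The class tests ran in edgeR 4.0.16 under R 4.3.3 (filterByExpr by class, TMM scaling, robust glmQLFit and glmQLFTest, 1 model with a mean per class over all 15 libraries, 12 residual degrees of freedom). P values are two-sided, adjusted by Benjamini-Hochberg over 19962 genes, with a threshold of 0.05. Library sets came from average-linkage clustering of log2 CPM (prior count 2) of 372 pseudogene or ribosomal RNA entries, with the tree cut into 3 sets. Relations across libraries used Pearson's r and Spearman's rho of log2 CPM with 100000 permutations, or all orderings within the 8-library set, which was chosen after seeing the data. The analysis was tested on simulated data. Alternatives were other scalings and filters, DESeq2 1.42.0, limma-voom (limma 3.58.1), the library sets and each library left out. Python 3.11.15, scipy 1.17.1, pandas 2.3.3, numpy 2.4.6 and matplotlib 3.10.9 did the rest.

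The factors, lists and tests were chosen with earlier results of these data known. Named genes are the 10 factors, PGR and ESR1, the 3 partners of smallest p in each comparison and the 3 genes most like each factor. IHH, NR2F2 and the family relatives such as SOX4 were named outside that rule, after their values were seen. Of the table, 4555 entries were at 0 throughout and 27 had names that read as dates. The 95% intervals of fold changes include the spread between heifers, and the floor of 3 counts covers counting error only.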

Additional observations from a re-analysis of the deposited data

Results flagged for a closer look

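In 30 groups (10 factors in 3 classes of 5 heifers), 5 had 1 heifer far from the other 4, by the gap to its neighbour over the range of the group (Dixon's critical value 0.71). For values with a normal spread, chance flags about 1 in 20 groups. The gap was taken on CPM rather than on log2 CPM, and groups flagged for the same library are not independent. That rate is therefore no test of the 5 groups. FOXL2 was high in Sub-fertile replicate 1, at 5.59 CPM, and in Infertile replicate 2, at 8.68 CPM. Infertile replicate 2 was also high for SOX9, at 4.40 CPM, and for MSX2, at 8.93 CPM. EMX2 was low in Sub-fertile replicate 3, at 75.6 CPM.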

How the results depend on the processing

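No gene passed in any class comparison in edgeR, where 2738, 2201, 525 and 1681 had an unadjusted p under 0.05 (Sub-fertile against High-fertile, Infertile against High-fertile, Infertile against Sub-fertile, any difference). Other tools called more: DESeq2 19, 34, 11 and 34 in the same order, limma-voom 1 in Infertile against High-fertile, 1 in Infertile against Sub-fertile and 1 for any difference, and limma-voom with sample quality weights 7162 in Sub-fertile against High-fertile and 5331 for any difference. Leaving out 1 library gave 0 to 3 genes in Sub-fertile against High-fertile, with 3 without High-fertile replicate 1, 3 without Infertile replicate 5, and 1 each without High-fertile replicate 3 and Infertile replicate 1. Leaving out the 2-library set, an alternative chosen with results known, gave 3. The cause was not tested. Of the 10 factors, SOX17 and GATA2 were called under quality weights only, in Sub-fertile against High-fertile, at -0.79 and -0.69. Without 1 library, the sign turned for EMX2 in Sub-fertile against High-fertile, from -0.04 to 0.06 without Sub-fertile replicate 3, and for MSX2 in Infertile against Sub-fertile, from 0.77 to -0.15 without Infertile replicate 2, among others. Differences of classes of 5 heifers are limited by the spread between animals. No paired analysis was possible because the labels carry animal numbers and no replicate number shared between classes.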

Other observations

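Sub-fertile replicate 1 was the lowest library for 4 of the 10 factors, FOXA2, SOX17, MSX1 and GATA2, where 10.8% of all genes had their lowest value there. Its epithelial markers summed to 673 CPM, the lowest of all libraries, and its stromal fibroblast markers to 29740 CPM, the second highest after the 39110 CPM of Infertile replicate 2.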
